A study of Mus musculus with 8 samples.

Results

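The NFkB transcription factor genes Nfkb1, Nfkb2, Rela and Relb, 5 genes of the feedback and TNF-induced class (Nfkbia, Tnfaip2, Tnfaip3, Tnfaip8 and Zfp36) and the cytokine gene Il1a were followed in 8 RNA sequencing libraries of mouse PyMT mammary tumour cells. The 10 genes were chosen by name, with earlier results of these data known. All 10 had a row among the 12964 genes of the deposited table, and all 10 passed the filter on low values. PyMT stands for the polyoma middle T antigen, an oncogene that drives these mammary tumours, and the labels give a wild-type genotype for every sample. The cells were cultured in medium with 2% serum, 10 µg/ml insulin and 20 ng/ml EGF, and fluorescence-activated sorting gave CD90pos and CD90neg populations. Each population was taken as untreated control or after interferon gamma (IFNg) at 10 IU/ml for 24 h. The 4 groups held 2 libraries each, with the letters A and B, and the labels do not say whether the letters stand for separate cultures, so the p-values rest on a spread between libraries that may be technical. Exons of Il1a, Nfkb2, Tnfaip2, Tnfaip8 and Zfp36 overlap genes on the opposite strand, and no source used here gives the strand setting of the counting, so reads of such partners cannot be told apart.

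NFkB is a family of dimeric transcription factors. In resting cells the canonical dimer of RelA (Rela) and p50 (made from Nfkb1) is held in the cytoplasm by IkB proteins, of which IkB alpha is encoded by Nfkbia. TNF, interleukin-1 and microbial ligands set off the destruction of IkB alpha, and the freed dimer switches on inflammatory genes together with its own brakes, such as Nfkbia and Tnfaip3. A second, slower arm processes p100 (from Nfkb2) to p52, which pairs with RelB (Relb). IFNg acts through another route, which starts with the JAK kinases, and many of its target genes carry gamma-activated sites.

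The libraries held between 31243646 and 40899909 recovered reads. Libraries A and B of the same group stood apart: they fell on opposite sides of the first principal component (51.5% of variance), and B minus A differences of any 2 groups had a Pearson coefficient of 0.779 to 0.920 across genes. Each test is therefore given from a fit without the letter, which was the main one, and, where the call differs, from a fit with the letter as a replicate block. Thy1, the gene of CD90, was at 283 and 1495 normalized reads in CD90pos control A and B, at 2195 and 3936 in CD90pos IFNg A and B, and between 16.6 and 65.5 in CD90neg libraries. The epithelial markers Epcam and Krt8 were high in every library, at 9200 to 21285 and 81212 to 314509 normalized reads. Elf5, Krt5 and Trp63 of the same list were low in the A libraries, at 8.89 to 27.8, 94.7 to 393 and 123 to 368. Of 13 leukocyte markers 5 were measured and their summed level was between 178 and 2051 normalized reads. Of 9 fibroblast markers 6 were measured, at a sum of 366 to 2251, and of 10 endothelial and pericyte markers 4, at a sum of 5358 to 16128 normalized reads. None of the measured markers was at 0 in both libraries of a group. Because these are bulk samples, fewer cells that express a gene and less RNA per cell cannot be told apart.

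In the main fit limma called Il1a and Zfp36 as higher with IFNg in CD90pos cells and Tnfaip8 in CD90neg cells. Il1a and Zfp36 were also higher with IFNg in CD90neg cells, at log2 fold changes of 5.20 and 1.04. They were called there with the letter as a block, and limma called no difference in IFNg effect between the populations for either gene. The genes of the p100 and RelB arm and of IkB alpha were not called in either population. In CD90pos cells 2 of 10 genes rose and 0 fell, against 4.21% of the 12962 genes tested (2.11% higher and 2.11% lower). With the letter as a block 4 of 10 rose, namely Il1a, Zfp36, Nfkb1 and Rela, against 27.6% of all genes (14.0% higher and 13.6% lower). In CD90neg cells 1 of 10 rose, against 0.640% of all genes (0.633% higher and 0.00771% lower), and with the block 3 of 10 rose, namely Il1a, Tnfaip8 and Zfp36, against 4.14% (3.48% higher and 0.663% lower). Without regard to a test, 6 of 10 had both IFNg libraries above both control libraries in CD90pos cells and 1 had both below, where 24.2% and 23.8% of all genes were, and 3 of 10 were above in CD90neg cells and 0 below, where 14.3% and 14.7% were. The median log2 fold change of the 10 genes was 0.36 in CD90pos and 0.13 in CD90neg cells, where that of all genes was 0.01 and -0.02. Because the 10 genes were chosen with earlier results known, these counts and medians cannot be read as an excess over all genes.

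**Figure D1:**
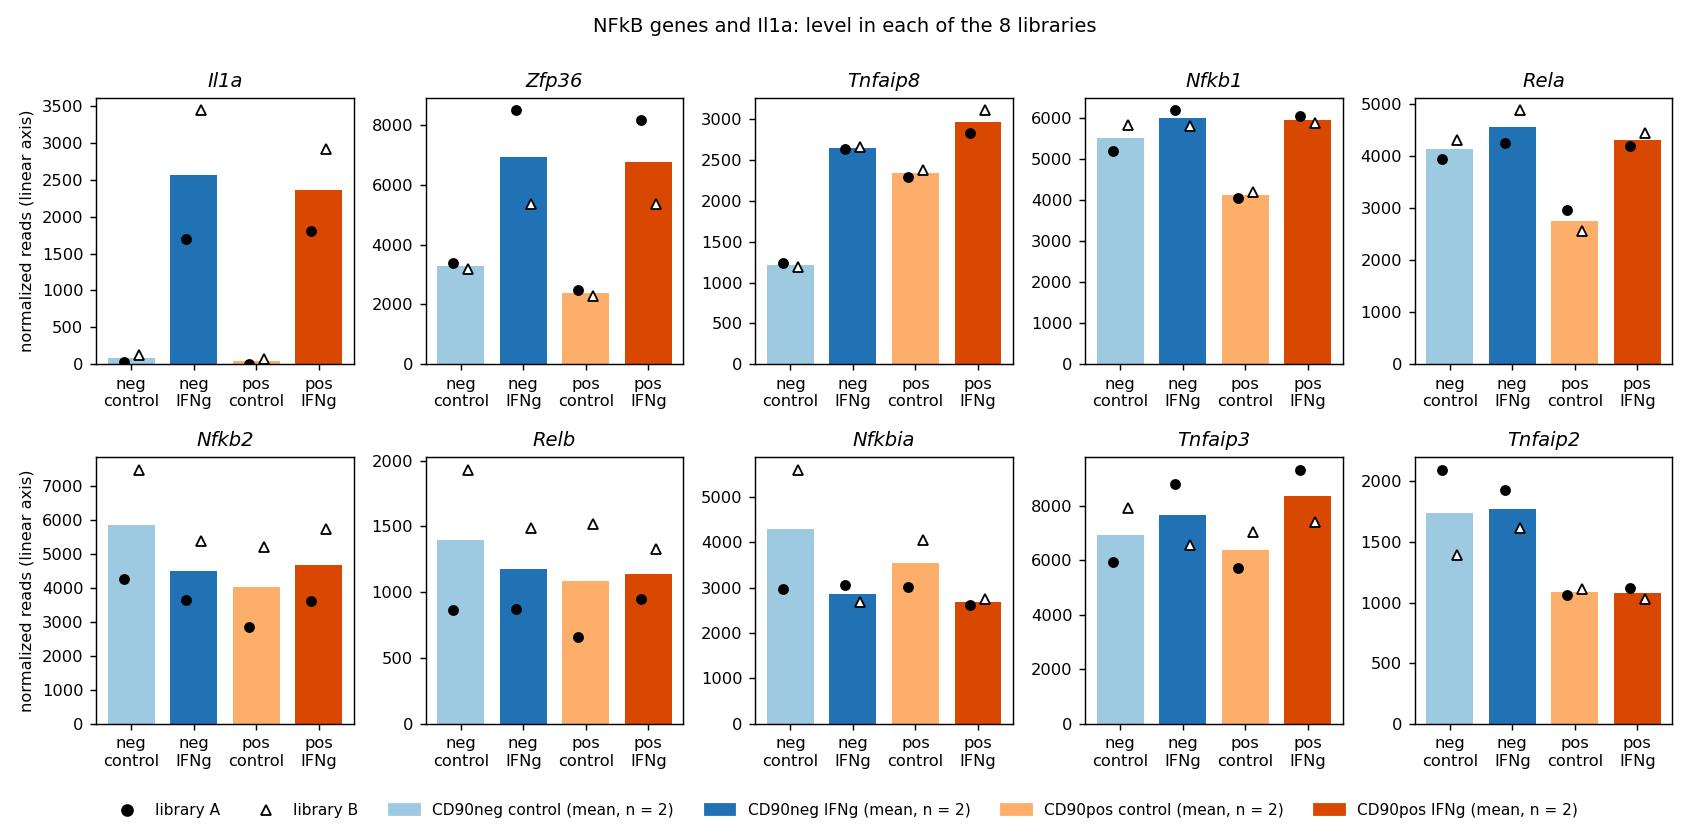
Level of each of the 10 genes (vertical axes, normalized reads, linear and starting at 0) in the 4 groups, with bars for the mean of 2 libraries, filled circles for library A and open triangles for library B. Il1a was at or below 123 normalized reads in all control libraries and at or above 1702 in all IFNg libraries, whereas Nfkb2 and Relb differed more between letters than between groups.

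Il1a encodes interleukin-1 alpha, a cytokine that epithelial cells release when damaged and that signals through the IL-1 receptor to NFkB; its own gene is also known to respond to NFkB. In CD90pos control cells it was at 7.66 and 77.4 normalized reads in libraries A and B, and in CD90pos IFNg cells at 1805 and 2913. In CD90neg control cells it was at 34.0 and 123, and in CD90neg IFNg cells at 1702 and 3442. Every IFNg library lay far above every control library, and in all 4 groups library B was above library A. The log2 fold change on the value + 1 scale was 6.46 in CD90pos cells (SE 1.12, 95% interval 3.72 to 9.20, limma adjusted p = 0.0401), with 7.70 within letter A and 5.22 within letter B. In CD90neg cells it was 5.20 (SE 1.12, 95% interval 2.46 to 7.95), with 5.61 and 4.80 within the letters; the limma adjusted p was 0.205 without and 0.00320 with the block. The call in CD90pos cells was lost with edgeR (adjusted p = 0.0608) and without each library other than CD90pos control B (adjusted p from 0.0712 to 0.254), and the log2 fold change was 4.87 without CD90pos control A, the library with the lowest Il1a value, and 8.05 without CD90pos control B. It was 5.81 with edgeR and 5.79 with DESeq2. With the block the same call held without any 1 library, at adjusted p-values up to 0.00952, and in CD90neg cells it was lost only without CD90neg control A (adjusted p = 0.0521). The difference between the populations in the IFNg effect was 1.26 (95% interval -2.62 to 5.14), so neither a larger nor a smaller response in CD90pos cells was resolved. Summed leukocyte markers were at 2051 and 218 normalized reads in CD90pos control A and B against 935 and 178 in CD90pos IFNg A and B. Lyz2 alone made up most of the A sums, at 1595 in control and 621 with IFNg. Cd68 was higher with IFNg in letter B, at 61.7 against 140. The part of the leukocyte markers in the Il1a result was not tested.

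Zfp36 encodes tristetraprolin, an RNA-binding protein that speeds the decay of cytokine mRNAs with AU-rich elements, such as that of TNF. It was at 2486 and 2286 normalized reads in CD90pos control A and B and at 8180 and 5366 in CD90pos IFNg A and B. In CD90neg cells it was at 3375 and 3200 in control A and B and at 8494 and 5352 in IFNg A and B. The control libraries lay close together, every IFNg library was above them, and among the IFNg libraries both A libraries were above both B libraries. The log2 fold change was 1.47 in CD90pos cells (SE 0.28, limma adjusted p = 0.0478), with 1.72 and 1.23 within letters A and B. In CD90neg cells it was 1.04 (SE 0.28), with 1.33 and 0.74 within the letters, at a limma adjusted p of 0.397 without and 0.0235 with the block. The call in CD90pos cells was close to the threshold and was lost with edgeR (adjusted p = 0.0508), with median centring (0.0543), with the trend on exon length removed (0.0535) and without each of the 8 libraries in turn (adjusted p from 0.0931 to 0.233); with the block it held in all of these leave-outs. The log2 fold change was 1.52 with edgeR, 1.43 with median centring and 1.51 with the length trend removed. In CD90neg cells the blocked call was lost without any 1 of the 4 CD90neg libraries (adjusted p from 0.0508 to 0.192).

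Zfp36 is also an immediate early gene. Of 18 other immediate early genes (Fos, Jun, Egr1 and others) limma called 0 in either population, with 2 and 0 at an unadjusted p under 0.05. EdgeR called 0 in both, and DESeq2 called 1 and 0. Of all 12962 genes tested 2969 and 729 were at an unadjusted p under 0.05, and DESeq2 called 2042 and 367. With the block 4 of the 18 were higher and 1 lower in CD90pos cells, a share near the 27.6% of all genes called in that fit. Among the 4 was Jun, named after its values were seen, at 1.54 (limma adjusted p = 0.0787, and 0.0106 with the block). It was at 6081 and 5816 normalized reads in CD90pos control A and B and at 23428 and 12708 in CD90pos IFNg A and B. Of the 18 genes 11 had values above 0 in CD90pos cells and 7 below. Their summed level was at 120468 and 74349.5 normalized reads in CD90pos control A and B and at 145921 and 83866 in CD90pos IFNg A and B, and at 125778 and 102857 against 149931 and 82813 in CD90neg cells. The A libraries were thus above the B libraries in this sum in every group, as they were for Zfp36; the part of this in the Zfp36 values was not tested. Its paralogues Zfp36l1 and Zfp36l2 had log2 fold changes of -0.43 and 0.70 in CD90pos cells (adjusted p = 0.355 and 0.147). Of the 10 genes of that family and of mRNA decay partners limma and edgeR called 0 in either population, with 4 and 2 at an unadjusted p under 0.05, and DESeq2 called 2 and 0. With the block Dcp2, a decapping enzyme, and Cnot1, the scaffold of the deadenylase, rose by 1.40 and 0.51 in CD90pos cells, and Dcp2 by 0.85 in CD90neg cells; of all genes 27.6% and 4.14% were called in these fits. Both were named after their values were seen.

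The promoters of both genes that limma called with IFNg in CD90pos cells in the main fit are shown from RefSeq (GRCm38.p6). Each runs from 250 bases before to 50 bases after the start site. Motifs were searched on both strands: the gamma-activated site TTCNNNGAA, the interferon-stimulated core GAAANNGAAA and the kappa B consensus. Of 32851 promoter windows of this length 8.30%, 3.44% and 4.51% held them. Capitals mark matches.
Zfp36, minus strand of chr7:28379179-28379478: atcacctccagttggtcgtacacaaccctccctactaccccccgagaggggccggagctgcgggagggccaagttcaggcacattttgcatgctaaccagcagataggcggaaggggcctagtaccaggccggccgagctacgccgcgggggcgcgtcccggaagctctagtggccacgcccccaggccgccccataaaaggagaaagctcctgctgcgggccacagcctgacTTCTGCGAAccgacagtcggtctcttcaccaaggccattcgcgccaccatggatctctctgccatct
Il1a, minus strand of chr2:129309923-129310222: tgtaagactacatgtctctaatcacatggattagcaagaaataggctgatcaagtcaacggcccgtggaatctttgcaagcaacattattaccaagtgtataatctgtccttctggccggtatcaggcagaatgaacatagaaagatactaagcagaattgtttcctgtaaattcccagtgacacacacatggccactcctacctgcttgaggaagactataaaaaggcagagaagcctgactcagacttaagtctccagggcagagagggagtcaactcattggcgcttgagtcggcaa
The Zfp36 window held 1 gamma-activated site match, TTCTGCGAA, whose first base lies 17 bases before the start site, and the Il1a window held no match to any of the 3 motifs. The RefSeq start of Zfp36 at position 28379228 lies inside the gene as the deposited table gives it (28376784 to 28380253), and that of Il1a, 129309972, is its end on the minus strand.

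Tnfaip8 encodes a TNF-induced protein that protects cells from apoptosis and binds lipids. It was at 1240 and 1188 normalized reads in CD90neg control A and B, and at 2642 and 2664 in CD90neg IFNg A and B. In CD90pos cells it was at 2295 and 2383 in control A and B and at 2829 and 3110 in IFNg A and B. CD90neg control libraries were the lowest by a wide margin, and libraries A and B of a group lay close together. The log2 fold change with IFNg was 1.13 in CD90neg cells (SE 0.12, limma adjusted p = 0.0246; 1.09 and 1.16 within letters A and B) and 0.34 in CD90pos cells (SE 0.12, adjusted p = 0.157; 0.0575 with the block). In CD90neg cells the call was lost without either CD90neg control, CD90neg IFNg or CD90pos IFNg library (adjusted p from 0.0848 to 0.252), held without either CD90pos control library, and held with edgeR (adjusted p = 0.0281) and in all 8 blocked leave-outs. Tnfaip8 has 10328 exonic bases, and with the trend of fold change on exon length removed, described below for the subunits, its values were 1.15 in CD90neg and 0.17 in CD90pos cells. The IFNg effect in CD90pos cells was lower than that in CD90neg cells by -0.78 (SE 0.17, 95% interval -1.19 to -0.38), at a limma adjusted p of 0.783, and 0.179 with the block. DESeq2 was the only tool that called this difference (adjusted p = 0.00145), and it called 171 of all genes where limma and edgeR called 0.

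**Figure D2:**
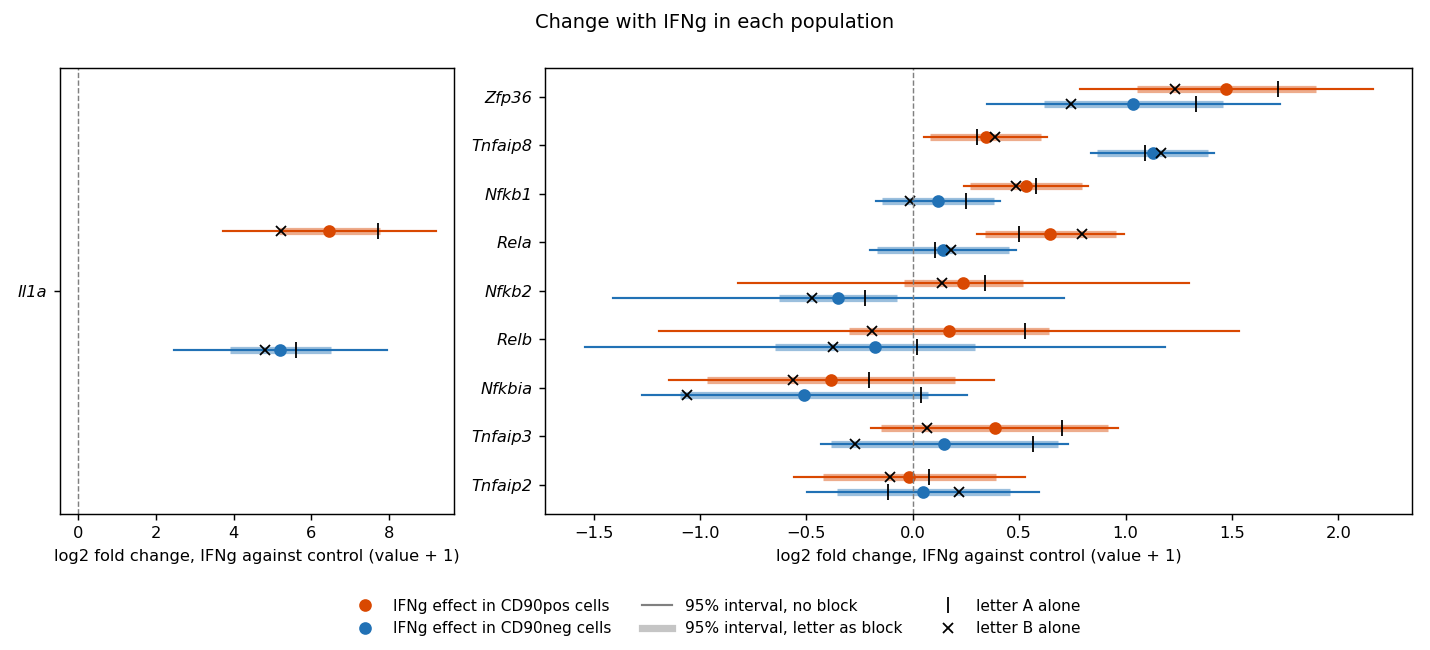
Log2 fold change with IFNg (horizontal axes, value + 1 scale) of Il1a (left) and the other 9 genes (right) in CD90pos and CD90neg cells, with 95% intervals per gene without and with the letter as a block and ticks and crosses for the change within letters A and B. Il1a and Zfp36 lie to the right of 0 in both populations, and the wide thin intervals of Nfkb2 and Relb narrow with the block. Tnfaip8 lies at 1.13 in CD90neg and 0.34 in CD90pos cells, a difference that only DESeq2 called.

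The canonical subunits Nfkb1 and Rela were higher with IFNg in CD90pos cells by small amounts. Rela was at 2967 and 2558 normalized reads in CD90pos control A and B and at 4188 and 4440 in CD90pos IFNg A and B, and at 3953 and 4314 against 4248 and 4882 in CD90neg control and IFNg A and B. Nfkb1 was at 4044 and 4199 in CD90pos control A and B and at 6043 and 5879 in CD90pos IFNg A and B, and at 5206 and 5845 against 6192 and 5799 in CD90neg cells. For both genes the CD90pos control libraries were the lowest of all 8, and the CD90neg groups overlapped. In CD90pos cells the log2 fold change was 0.65 for Rela (SE 0.14, limma adjusted p = 0.0612, and 0.0139 with the block) and 0.53 for Nfkb1 (SE 0.12, adjusted p = 0.0634, and 0.0155 with the block). With the block both calls were lost without CD90pos IFNg A or B (adjusted p from 0.103 to 0.147). In CD90neg cells the values were 0.14 for Rela (95% interval -0.20 to 0.49) and 0.12 for Nfkb1 (95% interval -0.17 to 0.41). The differences between the populations were 0.51 and 0.41, with unadjusted 95% intervals of 0.02 to 0.99 and 0.0018 to 0.82, and neither was called (limma adjusted p = 0.783 and 0.784, 0.255 and 0.265 with the block). Fold changes in CD90pos cells rose with exon length across genes (Spearman's coefficient 0.252 over 12954 genes, which are not independent replicates). After removal of that trend Nfkb1, with 12061 exonic bases, had 0.32 and was not called with the block (adjusted p = 0.106), and Rela had 0.72 and was called with the block (0.0143). The difference between the populations followed length more closely (Spearman's coefficient 0.323), and with the trend removed it was 0.17 for Nfkb1 and 0.58 for Rela (adjusted p = 0.717 and 0.291 with the block).

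Nfkb2 and Relb, the genes of the p100 and RelB arm, differed more between the letters than with IFNg. Nfkb2 was at 2858 and 5201 normalized reads in CD90pos control A and B, 3610 and 5727 in CD90pos IFNg, 4251 and 7458 in CD90neg control and 3638 and 5363 in CD90neg IFNg A and B. Relb was at 658 and 1516, 950 and 1329, 864 and 1930, and 876 and 1485 in the same order. Library B was above library A in every group, by 1.47 to 1.82 times for Nfkb2 and 1.40 to 2.30 times for Relb. The log2 fold change of Nfkb2 with IFNg was 0.24 in CD90pos cells (95% interval -0.82 to 1.30, limma adjusted p = 0.826, and 0.170 with the block) and -0.35 in CD90neg cells (95% interval -1.41 to 0.71, adjusted p = 0.220 with the block). For Relb it was 0.17 (95% interval -1.19 to 1.53) and -0.18 (95% interval -1.54 to 1.19), and within letters A and B it was 0.53 and -0.19 in CD90pos cells. Without the block the Relb intervals reach beyond 1 on the log2 scale in both directions. With the block they were -0.30 to 0.64 in CD90pos and -0.65 to 0.29 in CD90neg cells. Whether a change of 1 lay outside the interval thus depended on the fit.

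**Figure D3:**
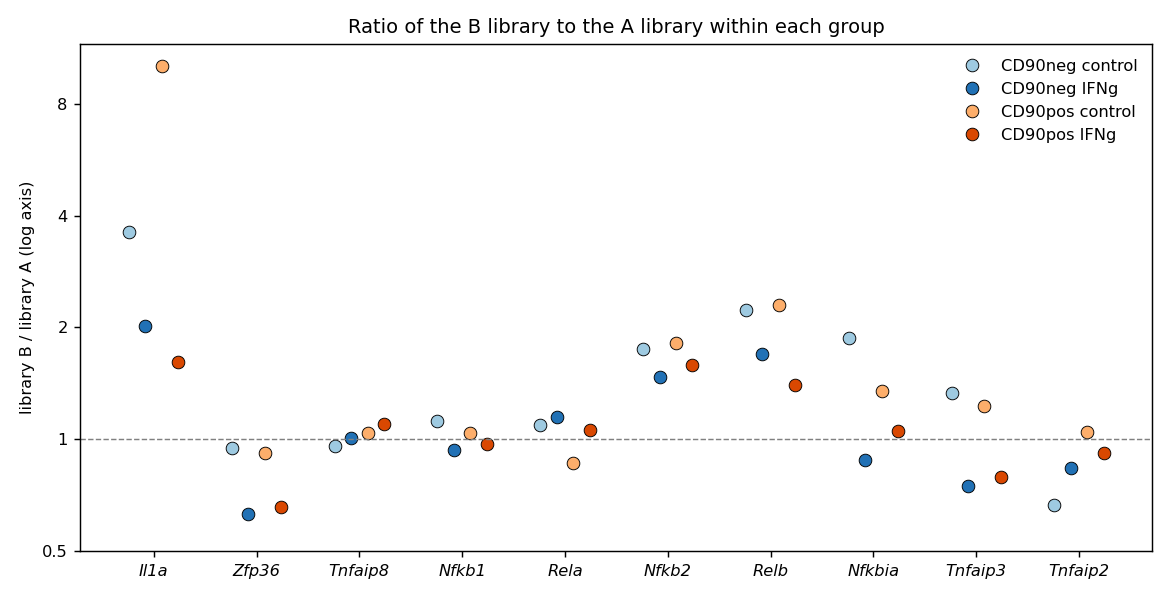
Ratio of library B to library A (vertical axis, log scale) for each of the 10 genes, with 1 point per group. Il1a, Nfkb2 and Relb lie above 1 in all 4 groups and Zfp36 lies below 1 in all 4, while Tnfaip8 stays between 0.958 and 1.10.

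Over the 10 genes, 3 were above in library B in all 4 groups (Il1a, Nfkb2 and Relb) and 1 was below (Zfp36), against 26.6% and 28.4% of all genes tested. Epithelial markers also differed by letter, with a summed level of 226023 to 510585 normalized reads in the A libraries and 762678 to 912579 in the B libraries. Summed leukocyte markers went the other way, at 935 to 2051 in the A and 178 to 225 in the B libraries. Of these, Lyz2 was at 621 to 1595 in the A and 11.2 to 45.8 in the B libraries. Csf1r was higher in B in CD90pos control, at 53.6 and 116 in A and B. The labels leave the letters undefined, and the part of these differences in the values of Il1a, Nfkb2, Relb and Zfp36 was not tested.

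The feedback genes Nfkbia and Tnfaip3 were not called in either population. Nfkbia was at 3014 and 4059 normalized reads in CD90pos control A and B and at 2613 and 2749 in CD90pos IFNg A and B, and at 2983 and 5600 against 3064 and 2685 in CD90neg cells. All 4 IFNg libraries lay between 2613 and 3064, and the control B libraries were the highest. The log2 fold change was -0.38 in CD90pos cells (95% interval -1.15 to 0.38, limma adjusted p = 0.549) and -0.51 in CD90neg cells (95% interval -1.27 to 0.25), where letter A gave 0.04 and letter B -1.06. Nfkbia has 1610 exonic bases, and with the length trend removed its values were -0.07 in CD90pos and -0.47 in CD90neg cells. The upper ends of these intervals, 0.38 and 0.25, lie below the log2 fold changes of Zfp36 in the same cells. Tnfaip3 encodes A20, a ubiquitin-editing enzyme that shuts off signalling from the TNF receptor. It was at 5716 and 7038 in CD90pos control A and B, 9303 and 7377 in CD90pos IFNg, 5934 and 7909 in CD90neg control and 8785 and 6552 in CD90neg IFNg A and B. Letter A was higher with IFNg in both populations (0.70 and 0.57 on the log2 scale), and letter B gave 0.07 and -0.27. The combined log2 fold changes were 0.39 (95% interval -0.20 to 0.97, adjusted p = 0.407, and 0.239 with the block) and 0.15 (95% interval -0.43 to 0.73, adjusted p = 0.866 with the block).

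Nfkbia and Nfkb2 are textbook targets of NFkB itself, and their RefSeq promoter windows are shown with the same marking.
Nfkbia, minus strand of chr12:55492598-55492897: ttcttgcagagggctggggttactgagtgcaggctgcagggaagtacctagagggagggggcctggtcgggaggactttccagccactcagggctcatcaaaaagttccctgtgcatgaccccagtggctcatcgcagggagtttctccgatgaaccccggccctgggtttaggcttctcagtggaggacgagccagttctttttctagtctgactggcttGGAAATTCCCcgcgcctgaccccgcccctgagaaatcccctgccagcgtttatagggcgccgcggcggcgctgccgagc
Nfkb2, plus strand of chr19:46304487-46304786: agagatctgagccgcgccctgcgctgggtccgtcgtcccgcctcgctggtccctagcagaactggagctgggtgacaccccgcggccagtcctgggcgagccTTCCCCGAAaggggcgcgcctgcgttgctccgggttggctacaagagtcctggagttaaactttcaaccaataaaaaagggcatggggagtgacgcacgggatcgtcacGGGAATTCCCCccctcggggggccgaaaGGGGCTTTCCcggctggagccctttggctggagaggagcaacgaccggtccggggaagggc
The Nfkbia window held 1 kappa B match, read on the other strand as GGGAATTTCC. RefSeq gives 3 start windows for Nfkb2, and the one shown is the first in the gene. It held 3 kappa B matches, of which GGGAATTCCC and, on the other strand, GGGGAATTCC overlap and the other is GGGGCTTTCC, and 1 gamma-activated site match, TTCCCCGAA. The other windows, which overlap each other, held 1 and 2 kappa B matches and no gamma-activated site. The first window of Tnfaip3 held 2 kappa B matches, and those of Rela and Tnfaip2 held none of the 3 motifs. RefSeq windows were matched for 7 of the 10 genes. A match is a description of the letters and no match says only that these letters are not in the window.

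Tnfaip2 encodes an exocyst-related protein first found as TNF-induced in endothelium. It was at 1064 and 1111 normalized reads in CD90pos control A and B and at 1121 and 1032 in CD90pos IFNg A and B. In CD90neg cells it was at 2095 and 1389 in control A and B and at 1930 and 1613 in IFNg A and B. Every CD90neg library was above every CD90pos library, with and without IFNg. The log2 fold change with IFNg was -0.02 in CD90pos cells (95% interval -0.56 to 0.53) and 0.05 in CD90neg cells (95% interval -0.49 to 0.59). CD90pos against CD90neg cells gave -0.65 in control (95% interval -1.19 to -0.11, limma adjusted p = 0.265, and 0.0559 with the block) and -0.71 with IFNg (95% interval -1.26 to -0.17). Neither difference was called, and no gene of the table was called between the populations with IFNg by limma with or without the block.

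Without IFNg, 9 of the 10 genes had lower values in CD90pos than in CD90neg cells, and Tnfaip8 had higher ones. The median log2 difference was -0.44, against -0.01 over all genes. Limma without the block called 0 of 10 and 0 of 12962 genes (0%), with 4 and 1898 at an unadjusted p under 0.05; edgeR called 0 and 0, and DESeq2 3 and 987. With the block 3 of 10 were called, against 11.2% of all genes (6.80% higher and 4.40% lower): Tnfaip8 was higher in CD90pos cells by 0.95 (SE 0.12 without the block, adjusted p = 0.0288 with it), Rela was lower at -0.58 (SE 0.14, adjusted p = 0.0397 with the block) and Nfkb2 was lower at -0.55 (adjusted p = 0.0374 with the block, 0.666 without). These blocked calls were not stable: all 3 were lost without any 1 of the 6 libraries other than CD90pos control A and B. The IFNg libraries among these do not enter the log2 differences, which stayed at 0.95, -0.58 and -0.55 without any 1 of them. Without CD90pos control A, Tnfaip8 and Rela were called (adjusted p = 0.0247 each) and Nfkb2 was not (0.0523, log2 difference -0.11). Without CD90pos control B, Tnfaip8 (0.0354), Nfkb2 (0.0425), Il1a (0.0366, log2 difference -2.92) and Tnfaip2 (0.0492) were called and Rela was not (0.0615). These differences fell with exon length across genes (Spearman's coefficient -0.263). With that trend removed Nfkb1 moved from -0.42 to -0.24 (adjusted p = 0.0560 and 0.263 with the block), Tnfaip3 from -0.11 to -0.013 and Nfkbia from -0.22 to -0.47, and Tnfaip8, Rela and Nfkb2 were still called with the block. Control groups did not overlap for Nfkb1, Rela, Tnfaip2 and Zfp36, which were lower (17.6% of all genes), and for Tnfaip8, which was higher (19.8%).

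With IFNg, 8 of the 10 genes had log2 differences between the populations from -0.10 to 0.13, and Tnfaip2 and Tnfaip8 did not overlap between them (lower for 6.97% and higher for 7.03% of all genes). Limma called 0 of 10 and 0 of 12962 genes (0%), with 1 and 17 at an unadjusted p under 0.05; edgeR called 0 and 0, and DESeq2 0 and 1. The differences of Nfkb1 (-0.0077, 95% interval -0.30 to 0.28), Rela (-0.08, 95% interval -0.42 to 0.27) and Tnfaip8 (0.16, 95% interval -0.13 to 0.45) were bounded most closely. That of Il1a, -0.08, had a 95% interval of -2.82 to 2.67. The comparisons of the populations in control and of IFNg in CD90pos cells share the CD90pos control libraries, so the low Rela and Nfkb1 values of those 2 libraries enter both. The difference in IFNg effect between the populations was called for 0 of 10 genes by limma (0% of all genes). At an unadjusted p under 0.05 were 3 of the 10 (Nfkb1, Rela and Tnfaip8) and 826 of all 12962 genes. EdgeR called 0 and 0, and DESeq2 called 1 (Tnfaip8) and 171.

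**Figure D4:**
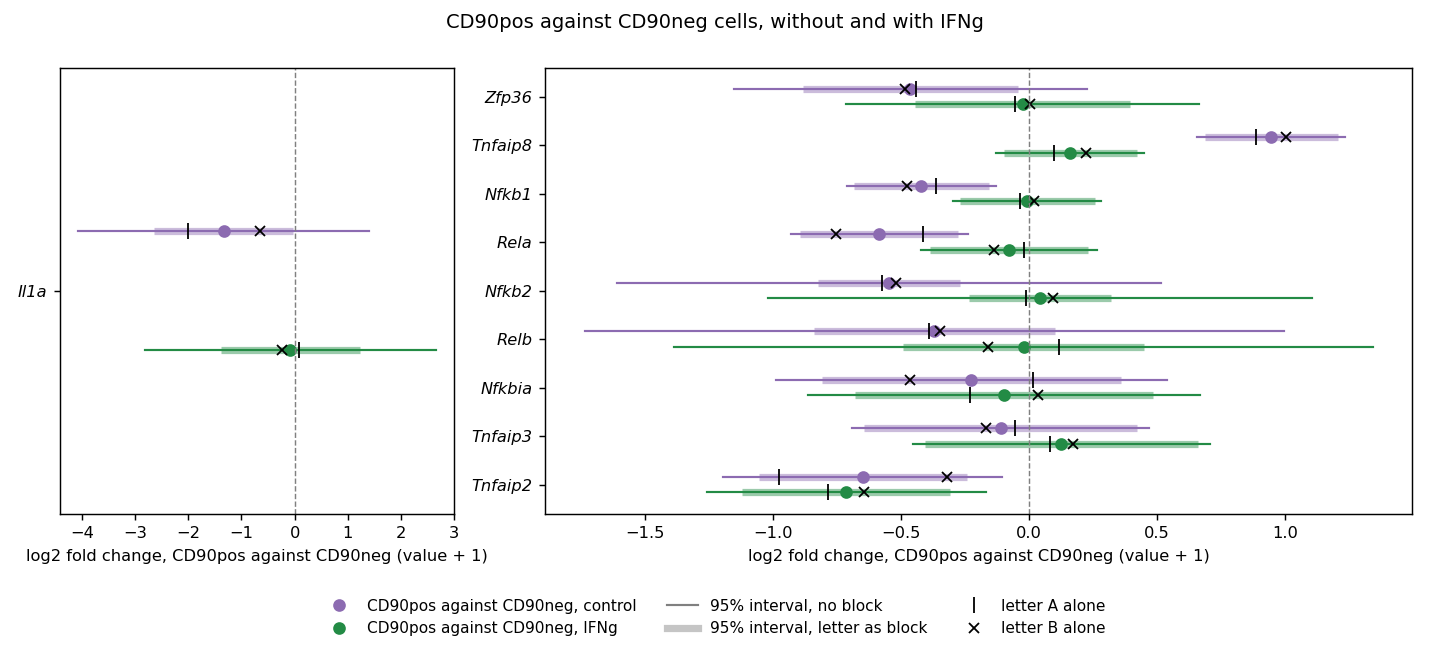
Log2 fold change of CD90pos against CD90neg cells (horizontal axes, value + 1 scale) for Il1a (left) and the other 9 genes (right), in control and IFNg libraries, with 95% intervals per gene without (thin) and with (thick) the letter as a block, and ticks and crosses for letters A and B. In control libraries all genes but Tnfaip8 lie left of 0, and with IFNg only Tnfaip2 (-0.71) keeps a 95% interval on 1 side of 0.

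Levels were also divided by exon length, counted as all bases in any annotated exon of a gene. This length can exceed that of the transcripts present, so the order of the genes is approximate. The control levels in CD90neg cells ran from Nfkbia at 2666 ± 1150 normalized reads per kilobase (SD, n = 2) to Rela at 1346 ± 83.1, Nfkb2 at 1277 ± 495, Tnfaip3 at 958 ± 193 and Zfp36 at 947 ± 35.6. Below these lay Nfkb1 at 458 ± 37.4, Relb at 360 ± 194, Tnfaip2 at 349 ± 100.1, Tnfaip8 at 118 ± 3.57 and Il1a at 39.7 ± 31.8. From Rela to Zfp36 and from Nfkb1 to Tnfaip2, neighbours in this order did not differ beyond the larger of their SDs. In CD90pos IFNg cells Zfp36, at 1952 ± 574, and Nfkbia, at 1665 ± 59.9, had the highest means and did not differ beyond the SD of Zfp36, and Il1a, at 1195 ± 397, lay among Rela (1404 ± 58.1), Tnfaip3 (1154 ± 188) and Nfkb2 (1018 ± 327). Il1a was thus the lowest of the 10 per kilobase in control cells and at the level of Tnfaip3 with IFNg.

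Among the other genes of the pathway, limma called Rnf31, Myd88, Ripk1, Ccl2, Lif, Casp1 and Il18bp as higher with IFNg in CD90pos cells. In CD90neg cells it called Ccl2, Casp1 and Il18bp. Rnf31, Myd88, Ripk1 and Lif had log2 fold changes of 1.19, 1.13, 0.65 and 0.72 in CD90neg cells and were called there with the block. The counts of the lists stand against 4.21% and 0.640% of all genes called in CD90pos and CD90neg cells, and 27.6% and 4.14% with the block. Of the 12962 genes tested 2969 and 729 were at an unadjusted p under 0.05. EdgeR called 419 and 62 of them, and DESeq2 2042 and 367. These lists were chosen with earlier results of these data known. Of the 6 other subunits and IkB proteins limma and edgeR called 0 in either population, with 1 at an unadjusted p under 0.05 in each, and DESeq2 called 1 and 0. With the block Bcl3 and Nfkbiz, nuclear IkB proteins that steer which NFkB targets are transcribed, rose in CD90pos cells by 1.56 and 1.62. Nfkbiz was at 1690 and 1153 normalized reads in CD90pos control A and B and at 4148 and 4439 in CD90pos IFNg A and B. Rel, the subunit c-Rel best known from lymphocytes, had -0.46 (adjusted p = 0.717). Here and in the lists that follow, genes not called by limma without the block were named after their values were seen.

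Of 26 adaptors, kinases and ubiquitin enzymes 3 rose in CD90pos cells and 0 fell (9 and 1 with the block), and 0 were called in CD90neg cells by limma or edgeR, with 4 at an unadjusted p under 0.05 and 4 called by DESeq2 (4 higher with the block). The 3 were Rnf31, the catalytic subunit of the linear ubiquitin ligase (1.76, adjusted p = 0.0234), Myd88, the adaptor of the IL-1 and Toll-like receptors (1.21, adjusted p = 0.0413), and Ripk1, a kinase of the TNF receptor complex (0.78, adjusted p = 0.0325). Without any 1 library only 0 to 1 of the 26 were called, and 3 to 11 with the block. Of 13 measured ligands and receptors limma and edgeR called 0 in either population, with 6 and 2 at an unadjusted p under 0.05, and DESeq2 called 4 and 2; with the block 2 rose and 3 fell in CD90pos cells and 3 rose in CD90neg cells. Tnfrsf1a, the main TNF receptor, rose with the block by 1.25 in CD90pos and 1.11 in CD90neg cells. Of 11 other feedback inhibitors limma, edgeR and DESeq2 called 0 in either population, with 2 and 0 at an unadjusted p under 0.05, and with the block 3 rose in CD90pos cells (Sigirr, Otud7b and Cyld), a share near that of all genes. Of 3 measured other TNFAIP genes the same tools called 0, with 0 at an unadjusted p under 0.05, and with the block Tnfaip6 fell in CD90pos cells (-1.59).

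Of 24 measured NFkB target genes 2 rose in CD90pos cells and 1 in CD90neg cells, and 0 fell. EdgeR called 1 and 0, and limma called 0 in either population without any 1 library (1 to 11 and 1 to 4 with the block). Ccl2, the monocyte chemokine, was at 70.1 and 44.9 normalized reads in CD90pos control A and B and 525 and 306 in CD90pos IFNg A and B, and at 47.3 and 59.3 against 532 and 401 in CD90neg cells. Its log2 fold changes were 2.82 (adjusted p = 0.0318) and 3.10 (adjusted p = 0.0404). Lif, a cytokine of the interleukin-6 family, rose by 0.92 in CD90pos cells (adjusted p = 0.0413). The median log2 fold change of the list was 0.07 in CD90pos and -0.05 in CD90neg cells, where that of all genes was 0.01 and -0.02. With the block 7 rose and 2 fell in CD90pos cells and 5 rose in CD90neg cells. Icam1, a leukocyte adhesion molecule, was among them, with 2.96 and 3.95, and its letters differed widely, at 60.2 and 2514 normalized reads in CD90pos control A and B. Other textbook targets had values below 0: Cxcl1, a neutrophil chemokine, had -0.81 and -0.61 (adjusted p = 0.392 in CD90pos cells), and Csf2, the gene of GM-CSF, had -2.70 and -2.38 (adjusted p = 0.101 and 0.553, and 0.0281 and 0.147 with the block).

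Of 13 measured IL-1 family genes 2 rose in both populations. Without any 1 library 0 to 2 were called in each population, and with the block 2 to 4 in CD90pos cells and 2 in CD90neg cells. Casp1, the protease that matures interleukin-1 beta and interleukin-18, rose by 2.36 in CD90pos cells (adjusted p = 0.0169) and 3.41 in CD90neg cells (adjusted p = 0.0109). Il18bp, the secreted inhibitor of interleukin-18, rose by 5.28 and 5.16 (adjusted p = 0.0146 and 0.0166). The receptor gene Il1r1 had -1.21 in CD90pos cells (adjusted p = 0.173, and 0.0476 with the block), at 169 and 103 normalized reads in control A and B against 49.4 and 64.4 with IFNg. Il1rn, which encodes the receptor antagonist, had -0.04 and 0.28 (adjusted p = 0.982 in CD90pos cells).

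Among the genes whose log2 values followed Il1a most closely over the 8 libraries were Bak1 and Irf2, with Pearson coefficients of 0.994 and 0.993. Bak1 encodes a pore-forming apoptosis protein and Irf2 an interferon regulatory factor. Bak1 was at 2970 and 4712 normalized reads in CD90pos control A and B and at 8017 and 8482 in CD90pos IFNg A and B. Closest to Zfp36 were Ccdc130, Ido2 and C2cd5 (0.993, 0.991 and 0.986), and closest to Nfkbia were Cep78, B3glct and Gm16001 (0.993, 0.945 and 0.935). These coefficients are the highest of the whole table over libraries that share letter and treatment, and are given as a description.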

How the data were processed

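RNA of 8 sorted PyMT tumour cell libraries was sequenced after a stranded mRNA preparation, per the labels' protocols. The submitters' processing notes name STAR, HTSeq, mm10 and GRCm38, with no version or setting. The authors' deposited values are a signal, read counts divided by a factor per library, here called normalized reads. In every library 100% of the values were whole multiples of 1 step within a tolerance of 0.001, so whole reads were recovered, and 3 reads were worth 2.55 to 3.37 normalized reads. The table held 0 value columns of other samples.

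The main test was limma 3.58.1 (R 4.3.3) with an expression trend on log2(normalized reads + 1), with 1 mean per group over all 8 libraries. It covered 12962 genes with at least 10 normalized reads in at least 2 libraries, with Benjamini-Hochberg adjustment and a threshold of 0.05. The added 1 lowers fold changes of low genes. For Il1a in CD90pos cells the value on this scale, 6.46, was still above those of edgeR and DESeq2, 5.81 and 5.79. Il1a was lowest in CD90pos control A, at 7.66 normalized reads, where 1 read was worth 1.09. All intervals are unadjusted. The main fit held no term for the letter, and SEs and intervals come from it unless the block is named. Only in the replicate block were the letters A and B taken as pairs. This was done because the B minus A differences correlated at 0.779 or more between all groups. The labels leave the letters undefined. Alternatives were the replicate block, pseudocounts of 0.5 and 5, no filter, a filter at 100, quantile normalization, median centring, edgeR 4.0.16 and DESeq2 1.42.0 on recovered reads (edgeR called 419 and 62 genes with IFNg in CD90pos and CD90neg cells, and DESeq2 2042 and 367), and each library left out. The block with libraries left out, and removal of the length trend (lowess span 0.3), were chosen after seeing the data. Exon lengths came from GENCODE and count all bases in any annotated exon of a gene. The scripts were tested on simulated data.

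The 10 genes and all gene lists were chosen with earlier results of these data known. All 10 were named, and from the lists every gene called by limma, up to 8 per list, plus the 3 genes most correlated with Il1a, Nfkbia and Zfp36. Of these, 1 gene is not reported here.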

Additional observations from a re-analysis of the deposited data

Results flagged for a closer look

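The IFNg effect on Nfkb2 had opposite directions in the populations in both letters, with 0.34 and 0.14 in CD90pos and -0.22 and -0.48 in CD90neg libraries A and B. The difference between the effects was 0.59 on the log2 scale. Its unadjusted 95% interval was -0.91 to 2.09 without the block and 0.20 to 0.98 with it. Limma did not call this difference without the block or with it (adjusted p = 0.206 with the block). The IFNg effect on Tnfaip8 differed by -0.78 between the populations (CD90pos minus CD90neg) and it passed the threshold with DESeq2 (adjusted p = 0.00145) but not with limma or edgeR (0.783 and 0.756).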

How the results depend on the processing

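For IFNg in CD90pos cells limma called 546 genes and 2 of the 10; the replicate block gave 3578 and 4, DESeq2 2042 and 5, removal of the length trend 309 and 1, median centring 1 of the 10 and edgeR 0 of the 10. Leaving out 1 library gave 2 to 114 genes and 0 to 1 of the 10, and with the block 460 to 4035 and 2 to 4. For CD90neg cells 83 genes and 1 of the 10 became 537 and 3 with the block and 367 and 3 with DESeq2, 3 to 80 and 0 to 1 without 1 library, and 222 to 698 and 1 to 3 with the block and without 1 library. Between the control populations 0 genes became 1451 and 3 of the 10 with the block, 987 and 3 with DESeq2, and 0 to 2468 and 0 to 4 with the block and without 1 library. With IFNg DESeq2 called 1 gene, and for the difference in effect 171 genes and 1 of the 10. The cause was not tested.

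Some small values changed sign. Tnfaip2 with IFNg was 0.00086 with edgeR in CD90pos cells and -0.0039 with median centring in CD90neg cells. Without 1 library, IFNg in CD90pos cells gave Nfkb2 -0.19 to 0.67, Relb -0.43 to 0.77 and Tnfaip2 -0.075 to 0.044. In CD90neg cells the ranges were -0.76 to 0.055 for Nfkb2, -0.76 to 0.40 for Relb, -0.25 to 0.35 for Tnfaip2 and -0.064 to 0.36 for Tnfaip3. Between control populations they were -2.92 to 0.25 for Il1a, -0.97 to 0.23 for Relb, -0.68 to 0.23 for Nfkbia and -0.32 to 0.096 for Tnfaip3. Between IFNg populations they were -0.59 to 0.43 for Il1a, -0.055 to 0.040 for Nfkb1, -0.29 to 0.37 for Nfkb2, -0.18 to 0.022 for Rela, -0.40 to 0.36 for Relb, -0.085 to 0.34 for Tnfaip3 and -0.36 to 0.31 for Zfp36. For the difference in effect they were -0.33 to 2.85 for Il1a, -0.25 to 0.95 for Relb, -0.33 to 0.58 for Nfkbia and -0.36 to 0.23 for Tnfaip2. With 2 libraries a group, precision rests on the spread between letters rather than on depth.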
